A study of Mus musculus with 16 samples.

Results

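The transcripts described here encode the machinery that fills, docks, primes and fuses synaptic vesicles. They comprise 39 genes chosen by symbol from the table of raw read counts, which listed 40481 genes. All 39 were found, and all 39 were among the 14949 genes abundant enough to be tested (above 1 CPM, a read count scaled to the library's total, in 7 or more mice). RNA was taken from brain tissue of male C57BL/6J mice (C57BL in the labels) aged 18 months, and the region of the brain is not given in the labels. One group of 8 mice received daily intraperitoneal injections of adropin(34-76), the putative secreted part of the peptide encoded by Enho, at 90 nmol/kg/d in saline with bovine serum albumin. The other 8 mice received the saline diluent alone. All of the mice were unmodified animals that had been through behavioural testing and a fast before tissue was collected. Mice are named below as in their labels, such as 8_3, and the meaning of these numbers is not stated.

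Neurotransmitter is released when a vesicle fuses with the presynaptic membrane. Synapsins tether vesicles in a reserve pool, and transporters in the vesicle wall load them with glutamate or GABA. At the active zone, the scaffolds Bassoon and Piccolo, the RIM proteins and Munc13 hold vesicles near calcium channels and ready them for fusion. Fusion itself is driven by the SNARE proteins, of which synaptobrevin (VAMP) sits on the vesicle and syntaxin and SNAP-25 on the target membrane. Complexins hold the assembled SNARE bundle in a state that synaptotagmin releases on binding calcium, after which NSF and the SNAP adaptors pull the used SNAREs apart. Different neurons use different versions of the same part: synaptotagmin-2, VAMP1 and complexin-1 are typical of fast-firing neurons, many of them inhibitory or in the brainstem.

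Total counts per mouse lay between 35026503 and 70314050, and the lowest count of any member in any mouse was 159 (Sv2c), so counting error was small for every member. Neuron markers were present throughout: the summed level of 10 pan-neuronal genes was 4907 to 6098 CPM in adropin and 4934 to 6383 CPM in saline mice. Markers of other regions varied more. The summed level of 8 choroid plexus genes reached 2480 CPM in saline mouse 8_3 but did not pass 74.6 CPM in any adropin mouse, and all 5 of those genes that could be tested had unadjusted p below 0.05. The summed level of 8 cerebellar genes likewise reached 537 CPM in 1 saline mouse and 61.0 CPM at most in adropin mice. The median log2 fold change was 0.18 over 8 cortical excitatory genes (summed level 659 to 974 CPM in adropin and 684 to 837 CPM in saline mice, 1 gene with unadjusted p below 0.05), -0.49 over 8 hippocampal genes (1 gene) and -0.24 over 7 thalamic genes (2 genes). The part of these tissue differences in the values below was tested only by leaving out each mouse in turn. In bulk tissue, fewer cells of a type and less RNA per cell cannot be told apart.

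Per kilobase of exon, the most abundant member was Cplx2 (complexin-2), at 415 CPM per kb averaged over the 16 mice. Snap25 followed at 408, Rab3a, the small GTPase of the vesicle surface, at 380, Slc17a7, which loads glutamate, at 354, and Vamp2 at 343 CPM per kb. Slc32a1, the transporter that loads GABA and glycine, stood at 35.7 CPM per kb, rank 26 of the 39. The least abundant were Syn3 (0.793 CPM per kb), Sv2c (0.847) and Sypl (3.62). Members also differed in how much they varied between mice of 1 group. Vamp2 had a within-group SD of 0.05 on the log2 scale, at percentile 0.174 of all genes tested, and its highest mouse was only 1.13 times its lowest. Syt2 had an SD of 0.75, at percentile 99.2, and its highest mouse was 5.74 times its lowest. The median SD was 0.18 over the members and 0.20 over all genes tested.

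**Figure D1:**
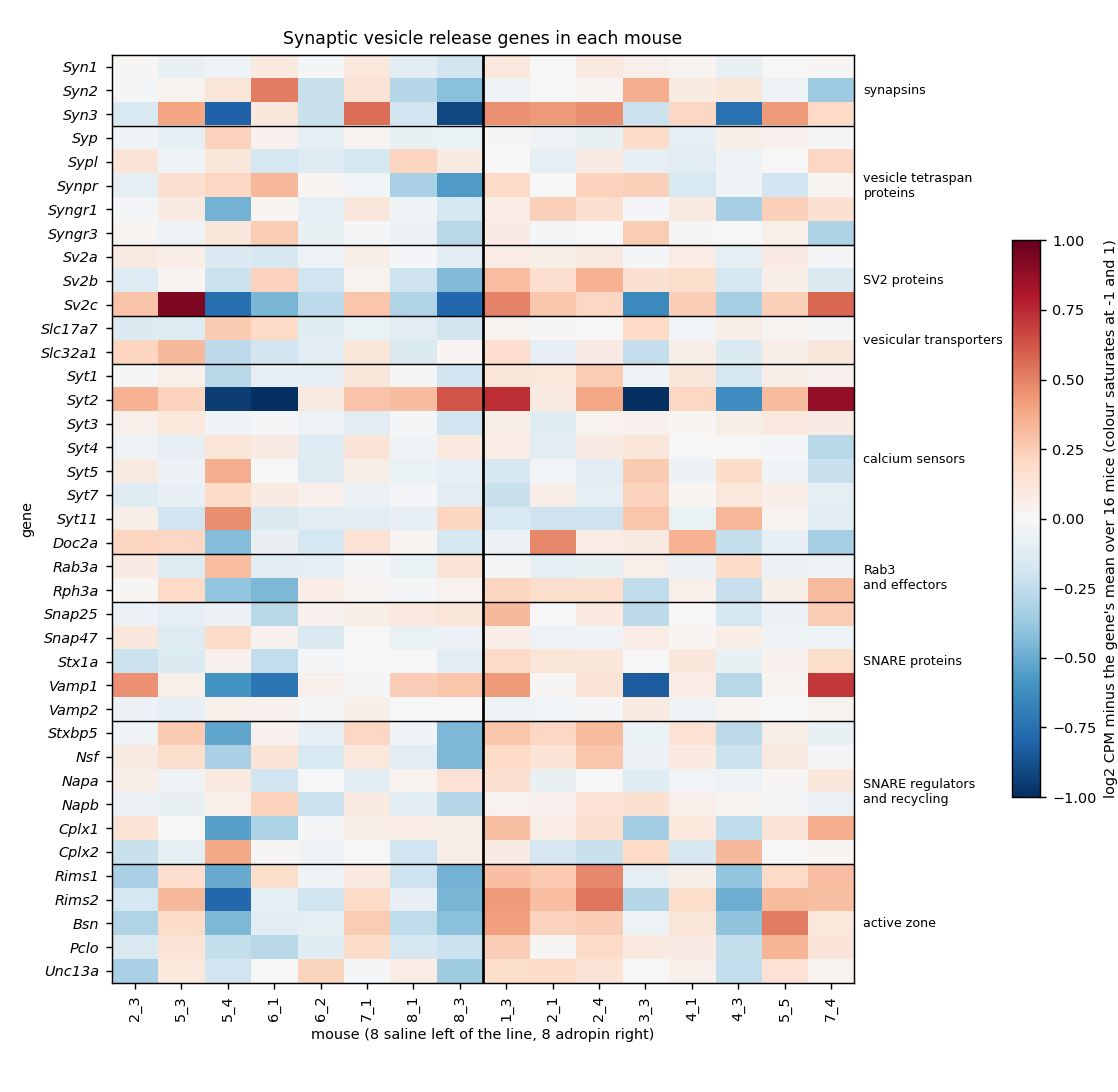
Level of each of the 39 genes (rows, grouped by role) in each of the 16 mice (columns, 8 saline left of the vertical line and 8 adropin right of it), as log2 CPM minus the mean of that gene over all mice. Syt2, Vamp1, Syn3 and Sv2c show the strongest colours, Vamp2 the weakest, and saline mice 5_4 and 8_3 and adropin mouse 4_3 show many entries below the mean.

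The first question was whether adropin changed these transcripts. None of the 39 members passed the study's cut-off, a fold change above 1.5 with an unadjusted p below 0.05, which 0.421% of all genes tested did. The member farthest from no change was Rims2, a RIM protein of the active zone, at 1.25-fold. An unadjusted p below 0.05 was found for 5 of the 39 members, against 3.99% of all genes tested, and all 5 were higher in adropin mice, a call that 1.86% of all genes received. They were Stx1a, Pclo, Bsn, Sv2b and Rims1. After Benjamini-Hochberg adjustment over all genes tested, the smallest adjusted p of any member was 0.874 in edgeR's quasi-likelihood test, and no gene of the 14949 had an adjusted p below 0.05. The log2 fold change was above 0 for 32 members and below 0 for 7. The median log2 fold change was 0.07 over the members and -0.0019 over all genes tested, of which 49.2% lay above 0. In all 39 members the ranges of the groups overlapped, and the share of all genes tested with such overlap was not counted.

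**Figure D2:**
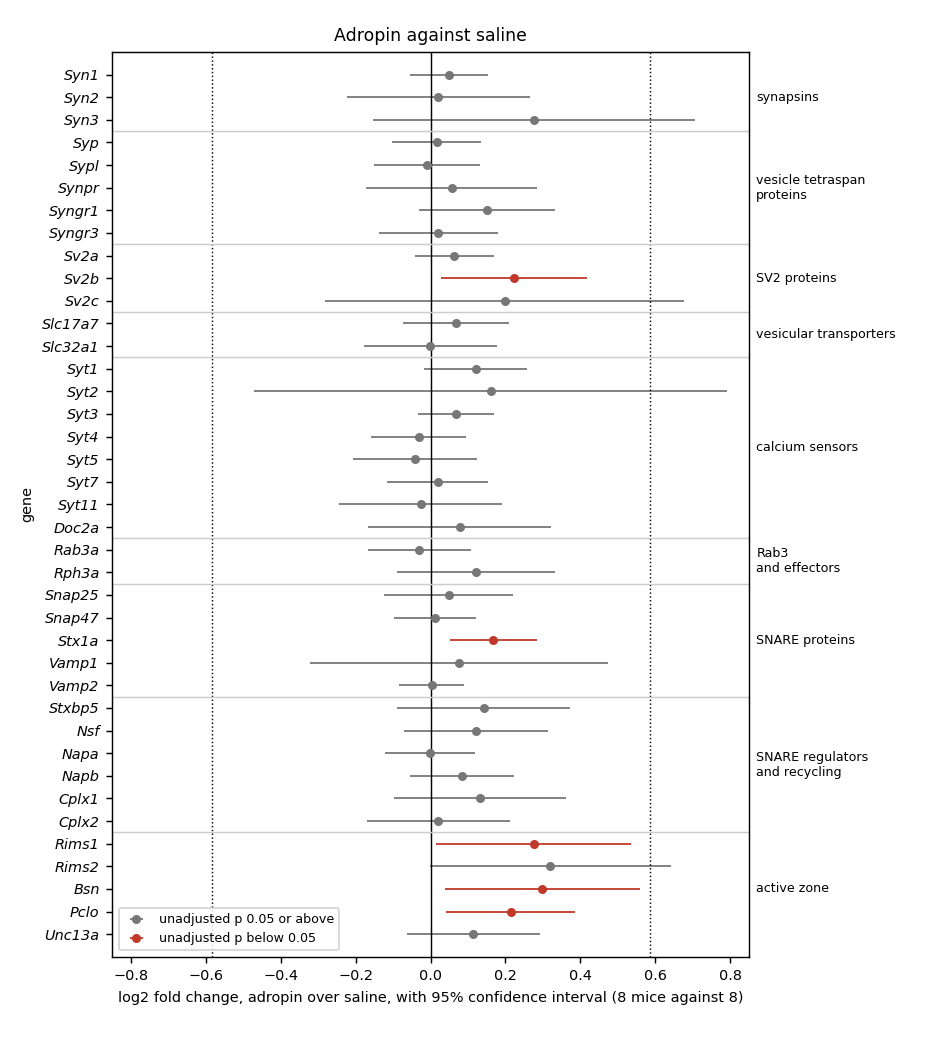
Log2 fold change of each member (adropin over saline, 8 mice against 8, edgeR) with its 95% confidence interval, grouped by role; dotted lines mark a fold of 1.5 either way. The 5 intervals in red lie above 0, 3 of them in the active zone group, and the interval of Syt2 is the widest.

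Active zone genes had the highest median log2 fold change of the 9 roles, 0.28. All 5 members were higher on average in adropin mice, and 3 of the 5 had an unadjusted p below 0.05. Between mice these genes also followed a transcript length index, the tilt of a mouse's reads towards long transcripts (r = 0.884 for Bsn, 0.898 for Rims1 and 0.934 for Rims2), and with that index as a covariate their log2 fold changes were 0.15, 0.13 and 0.12, beside 0.15 for Stx1a. Bsn encodes Bassoon, the giant scaffold that organises the active zone (chr9:108096022-108190384, GRCm38, minus strand). Its level ran from 440 to 833 CPM with a median of 657 in adropin mice, and from 424 to 692 CPM with a median of 514 in saline mice. That is a log2 fold change of 0.30 ± 0.12 (SE; 95% confidence interval 0.04 to 0.56; p = 0.0265 in edgeR, exact permutation p = 0.0516). Of the adropin mice, 7 of 8 lay above the saline median, while adropin mouse 4_3 was near the bottom of both groups.

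Pclo encodes Piccolo, the partner of Bassoon (chr5:14514918-14863459, plus strand). It ranged from 199 to 296 CPM with a median of 253 in adropin mice and from 193 to 265 CPM with a median of 210 in saline mice. The log2 fold change was 0.21 ± 0.08 (SE; edgeR p = 0.018, exact permutation p = 0.0278). Again 7 of 8 adropin mice lay above the saline median, and the ranges overlapped over most of their width.

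Rims1 encodes RIM1, which links vesicle-bound Rab3 to Munc13 and to calcium channels (chr1:22286251-22805994, minus strand). Its level was 163 to 299 CPM, median 250, in adropin mice and 151 to 242 CPM, median 196, in saline mice, with a log2 fold change of 0.28 ± 0.12 (SE; edgeR p = 0.0397, exact permutation p = 0.0668). Its relative Rims2 had the largest log2 fold change of all members, 0.32 ± 0.15 (SE), but with p = 0.0509 in edgeR and 0.0929 by exact permutation. For Rims2 p was 0.0417 in DESeq2 and 0.0376 in edgeR without the abundance filter. For Rims1 it was 0.0527 in edgeR with library size alone as the scaling. Rims2 values were 41.4 to 83.9 CPM in adropin and 33.7 to 72.4 CPM in saline mice. For Unc13a, which encodes the priming factor Munc13-1, the means were 442 ± 40.9 CPM (SD, n = 8) in adropin and 408 ± 58.2 CPM in saline mice (exact permutation p = 0.192). The active zone genes thus differed by 1.08-fold (Unc13a) to 1.25-fold (Rims2), with a spread between mice of the same size.

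Of the 5 SNARE genes, Stx1a alone had p below 0.05. It encodes syntaxin-1A, the SNARE of the presynaptic membrane (chr5:135023482-135051100, plus strand), and had the smallest p of all members. Adropin mice ranged from 341 to 409 CPM with a median of 390, and saline mice from 302 to 369 CPM with a median of 345. The log2 fold change was 0.17 ± 0.06 (SE; 95% confidence interval 0.05 to 0.28; edgeR p = 0.00713, adjusted p = 0.874, exact permutation p = 0.00497), or 1.12-fold. The saline median was exceeded by 7 of 8 adropin mice, and the highest saline mouse by 6 of 8. Its SNARE partners differed little: the log2 fold change was 0.05 for Snap25 and 0.0025 for Vamp2, the main vesicular SNARE of the forebrain. The 95% confidence interval for Vamp2 ran from -5.67% to 6.38%, the narrowest of all members. Vamp1, the vesicular SNARE of fast-firing neurons, had a log2 fold change of 0.08 with an interval from -0.32 to 0.47, and Snap47, a SNAP-25 relative, one of 0.01.

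The SV2 glycoproteins are membrane proteins of the vesicle that regulate calcium-triggered release. All 3 were higher on average in adropin mice, and Sv2b (chr7:75114894-75309262, minus strand) had p below 0.05. Sv2b ran from 320 to 458 CPM with a median of 401 in adropin mice and from 264 to 422 CPM with a median of 322 in saline mice, a log2 fold change of 0.22 ± 0.09 (SE; edgeR p = 0.0268, exact permutation p = 0.0404). Saline mouse 8_3 was the lowest of all 16 for this gene. Sv2a had a log2 fold change of 0.06 (exact permutation p = 0.145). Sv2c, at 7.65 ± 3.47 CPM in saline and 8.78 ± 2.21 CPM in adropin mice (SD, n = 8), had one of 0.20 with an interval from -0.28 to 0.68.

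The calcium sensors and their relatives did not share a direction, with 5 of 8 above 0. Syt1 encodes synaptotagmin-1, the main sensor for synchronous release in the forebrain. Its mean was 1575 ± 136 CPM (SD, n = 8) in adropin and 1449 ± 126 CPM in saline mice, a log2 fold change of 0.12 (exact permutation p = 0.0786). Syt2, which takes that role in fast-firing neurons, was at 93.7 ± 38.2 CPM and 83.9 ± 33.1 CPM, and its interval from -0.47 to 0.79 was the widest of all members. Syt7, a slower, high-affinity sensor, differed by 0.02 on the log2 scale, Syt11, a synaptotagmin that does not bind calcium, by -0.03, and Syt5 by -0.04. For Syt3, Syt4 and Doc2a, the last a soluble sensor linked to spontaneous and asynchronous release, the values were 0.07, -0.03 and 0.08.

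Differences were likewise small for the proteins that define and fill the vesicle. Among the synapsins, Syn1 and Syn2 had log2 fold changes of 0.05 and 0.02, while Syn3, the scarcest, had one of 0.28 with an interval from -0.15 to 0.71. The tetraspan vesicle proteins lay between -0.01 (Sypl) and 0.15 (Syngr1, synaptogyrin-1, exact permutation p = 0.134), with Syp, which encodes synaptophysin, at 0.02, Syngr3 at 0.02 and Synpr at 0.06. Slc17a7 ran from 1865 to 2178 CPM in adropin and from 1675 to 2275 CPM in saline mice, a log2 fold change of 0.07. Slc32a1 was at 99.8 ± 9.45 CPM and 99.9 ± 14.7 CPM (SD, n = 8), a log2 fold change of -0.0013.

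The genes that regulate and recycle SNAREs gave log2 fold changes from -0.00115 (Napa, alpha-SNAP) to 0.14 (Stxbp5, tomosyn, which sequesters syntaxin and SNAP-25), none with p below 0.05. Nsf, the ATPase that takes SNAREs apart, stood at 0.12, Napb at 0.08, Cplx1 at 0.13 and Cplx2 at 0.02. Rab3a differed by -0.03 and its effector Rph3a (rabphilin-3A) by 0.12. The design bounded most of these differences: for 35 of 39 members the 95% confidence interval lay wholly within a fold of 1.5 either way, and the median interval extended 1.13-fold either side of the estimate. The 4 members whose intervals reached past 1.5-fold in 1 direction were Syn3, Syt2, Sv2c and Rims2.

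How far the 5 differences with p below 0.05 rested on single mice varied. Stx1a and Pclo kept p below 0.05 without each of the 16 mice in turn, with highest p of 0.0163 and 0.0378 in edgeR. With the first number of the mouse labels as a block both lost it, with p of 0.0618 for Stx1a and 0.0966 for Pclo in edgeR, as did Bsn and Sv2b. The log2 fold changes under that block were 0.20 for Stx1a, 0.22 for Pclo and 0.38 for Bsn, no smaller than without it, and 0.15 for Sv2b. With the second number as a block Pclo, at 0.0926, Bsn and Rims1 lost it. On leaving out 1 mouse, Bsn lost it in 5 of 16, Sv2b in 5 of 16 and Rims1 in 9 of 16 such fits, with highest p of 0.0606, 0.0623 and 0.0879. Rims1 lost it without adropin mice 1_3, 2_1, 2_4, 5_5 or 7_4 or saline mice 2_3, 5_4, 8_1 or 8_3. Sv2b lost it without adropin mice 1_3 or 2_4 or saline mice 6_2, 8_1 or 8_3, and Bsn without adropin mice 1_3 or 5_5 or saline mice 2_3, 5_4 or 8_3.

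A further list held 101 other genes of vesicle release and recycling, of which 97 could be tested. Of these, 58 had a log2 fold change above 0 and 39 below, with a median of 0.04. An unadjusted p below 0.05 was found for 2 of the 97, a smaller share than the 3.99% of all genes tested, and both were lower in adropin mice. Rph3al (Noc2, a rabphilin-like Rab effector) was at 2.17 ± 0.40 CPM (SD, n = 8) against 2.83 ± 0.60 CPM in saline mice, a log2 fold change of -0.38 (edgeR p = 0.0153, exact permutation p = 0.0191). Sh3gl1 (endophilin-A2, which bends membrane during endocytosis) was at 38.3 ± 3.07 CPM in saline mice, with a log2 fold change of -0.13 (edgeR p = 0.0289, exact permutation p = 0.0216). Of the other genes of the active zone, 17 of 23 were above 0 with a median of 0.09. Of the other SNARE genes, 7 of 20 were, with a median of -0.02, and none of either list had p below 0.05. Among all genes tested 49.2% were above 0. Among coding genes with more than 8 kb of exon 74.0% were, with a median log2 fold change of 0.06. The exon lengths of these lists were not compared.

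The second question was how the members varied together between mice, apart from treatment. Correlations were taken over the 16 mice on log2 CPM after the mean of each group was subtracted. Over the 741 pairs of members the median Pearson r was 0.098, against 0.002 over all 111728826 pairs of genes tested. An r of 0.5 or more was found in 26.9% of member pairs and 14.2% of all pairs, and an r of -0.5 or less in 16.5% and 13.1%. A permutation test of mice within groups gave 214 pairs with a Benjamini-Hochberg adjusted p below 0.05 over the 741, of which 140 were positive and 74 negative. All pairs share the same 16 libraries.

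**Figure D3:**
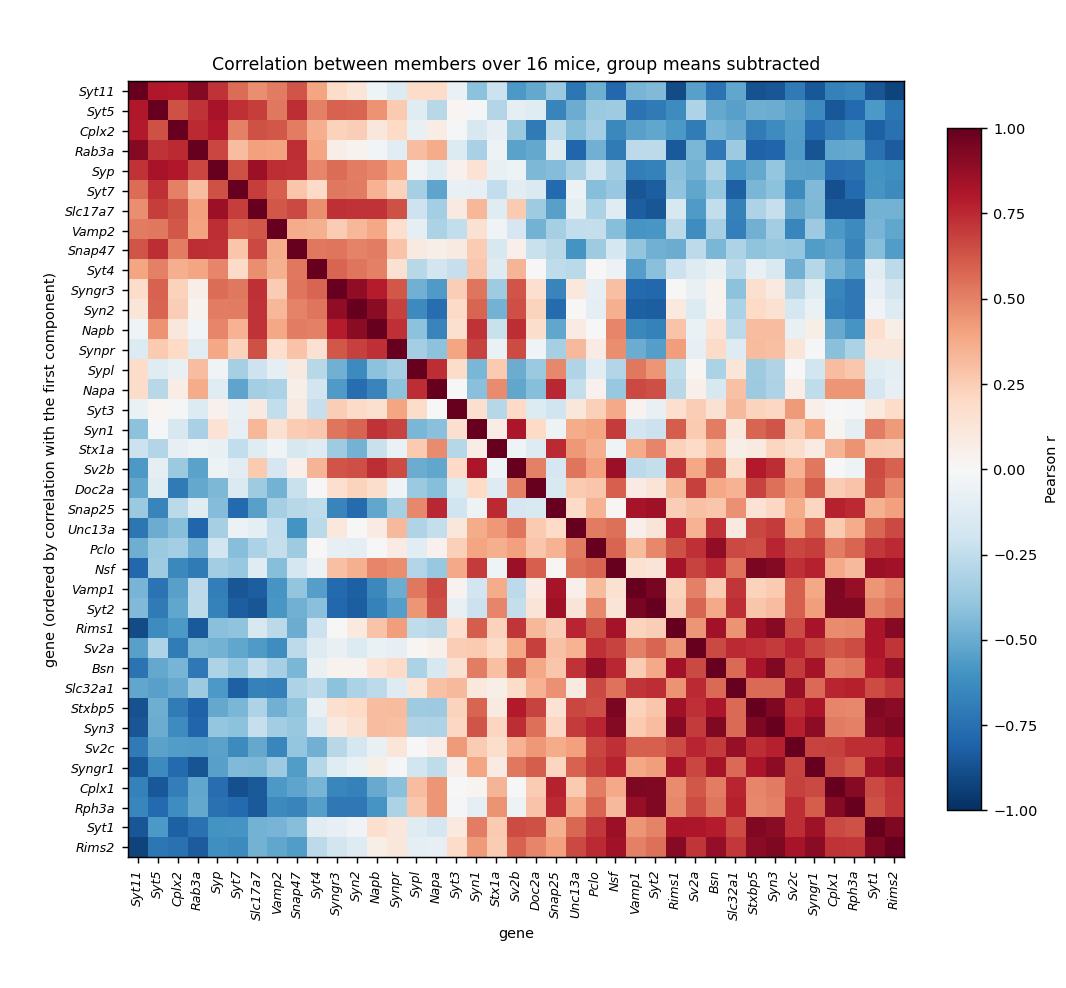
Pearson r between each pair of the 39 members over 16 mice with group means subtracted, genes ordered by their correlation with the first principal component. A red block at the lower right holds the active zone genes with Syt1, Syn3 and Stxbp5, a smaller red block at the upper left holds Syt11, Syt5, Cplx2, Rab3a and Syp, and the 2 blocks are blue against each other.

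The active zone was the most coherent role. All 10 pairs among Rims1, Rims2, Bsn, Pclo and Unc13a were positive, with a median r of 0.755 and 9 of the 10 at an adjusted p below 0.05. Each of these genes was also positively correlated with the transcript length index (r from 0.691 for Pclo to 0.934 for Rims2). The pairs among them were not taken with that index regressed out, so its part in their r was not tested. Rims1 and Rims2 had r = 0.907 (rho = 0.853, permutation adjusted p = 0.000529) and Bsn and Pclo r = 0.886 (rho = 0.785, permutation adjusted p = 0.00209). The 3 pairs of synapsins and the 3 of SV2 genes were also all positive, with median r of 0.582 and 0.388 and 1 of the 6 at an adjusted p below 0.05. Other roles were split. Of 28 pairs among the calcium sensors 11 were positive, and of 10 pairs among the SNARE genes 4 were.

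Pairs among 6 genes that divided the mice into separate sets, Syt2 and Vamp1 among them, are given further on within 1 of those sets. Among the other pairs the highest r was within a role, that of SNARE regulators and recycling, and the next 3 crossed roles. Stxbp5 and Nsf had r = 0.941 (rho = 0.909, permutation adjusted p = 0.000529), and r = 0.906 without the 2 mice farthest from the median of Stxbp5. Syn3 and Rims2 had r = 0.936 (rho = 0.935, r = 0.939 without the 2 extreme mice) and Syn3 and Stxbp5 r = 0.934 (rho = 0.900, r = 0.911). Syt1 and Rims2 had r = 0.934 (rho = 0.862, r = 0.863). For these pairs the permutation p was at or close to 1e-05, the smallest that 100000 permutations can give. With the length index regressed out, r was 0.799 for Stxbp5 and Nsf, 0.616 for Syt1 and Rims2 and 0.543 for Syn3 and Stxbp5, and 0.466 for Syn3 and Rims2, whose permutation p was then 0.0747.

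Syt11 ran against these genes. Its r was -0.922 with Rims2 (rho = -0.779, r = -0.845 without the 2 extreme mice), -0.897 with Rims1 (rho = -0.906, r = -0.859), -0.872 with Stxbp5 (rho = -0.853, r = -0.762) and -0.858 with Syt1 (rho = -0.706, r = -0.716), all with a permutation adjusted p below 0.05. With the length index regressed out these were -0.544 with Rims2, -0.478 with Rims1, -0.305 with Stxbp5 and -0.290 with Syt1, and only that with Rims2 kept an unadjusted permutation p below 0.05. The closest positive partner of Syt11 was Rab3a (r = 0.918, rho = 0.794, permutation adjusted p = 0.000529). Syngr1 and Rab3a had r = -0.860, but the rank correlation was -0.632 with a permutation adjusted p of 0.0686, and r fell to -0.579 without the 2 extreme mice, so the size of that relation rested on those 2 mice. It was -0.470 with the length index regressed out (permutation p = 0.0955).

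Paralogs did not always move together. Cplx1 and Cplx2 had r = -0.694 (permutation adjusted p = 0.0289), though the rank correlation was -0.418 (adjusted p = 0.277) and r was -0.436 without the 2 extreme mice. Napa and Napb, the alpha and beta forms of the SNAP adaptor, had r = -0.659 (rho = -0.600, permutation adjusted p = 0.0384 for r and 0.0877 for rho). Sv2a and Sv2c had r = 0.760 (rho = 0.709, permutation adjusted p = 0.0119). For Syn1 and Syn2, Vamp1 and Vamp2, and Syt1 and Syt2 the r values were 0.582, -0.591 and 0.50, none with an adjusted p below 0.05.

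A property that the members' choice did not use, transcript length, went along with both comparisons. For each mouse a length index was computed as the Spearman correlation, over 13529 protein-coding genes other than the members, between a gene's exon length and its deviation in that mouse from its mean over all mice. A mouse with a high index has relatively more reads from long transcripts. The index ran from -0.463 in saline mouse 5_4 to 0.424 in adropin mouse 2_4. Its mean was 0.145 ± 0.292 (SD, n = 8) in adropin and -0.039 ± 0.315 in saline mice (exact permutation p = 0.237), so the groups were not separated on it at this sample size. What moved the index between mice was not tested.

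The index was followed by 10 of the 39 members at a permutation adjusted p below 0.05 over 546 relations, and 3 ran against it. At the same limit, a permutation p of at most 0.00428, 16.9% of all genes tested followed the index and 13.5% ran against it, and the index was itself computed from most of the genes tested. The highest r values were 0.942 for Syn3, 0.934 for Rims2, 0.912 for Stxbp5, 0.898 for Rims1, 0.895 for Syt1 and 0.884 for Bsn. Syt11 had r = -0.895, Rab3a -0.858 and Cplx2 -0.695. Of the 5 members with p below 0.05 between groups, Stx1a followed it least (r = 0.281, rho = 0.091, permutation adjusted p = 0.571), and Pclo and Sv2b stood at 0.691 and 0.677. Stx1a has 2666 bases of exon and Syn3, Rims2 and Bsn have 12282, 10389 and 15938. Syt11 has 5205 and Rab3a 2226. Length alone did not order the members: Syngr1, with 4808 bases, had r = 0.857, while Vamp1, with 10167, had 0.263 and Sypl, with 8345, had -0.301.

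**Figure D4:**
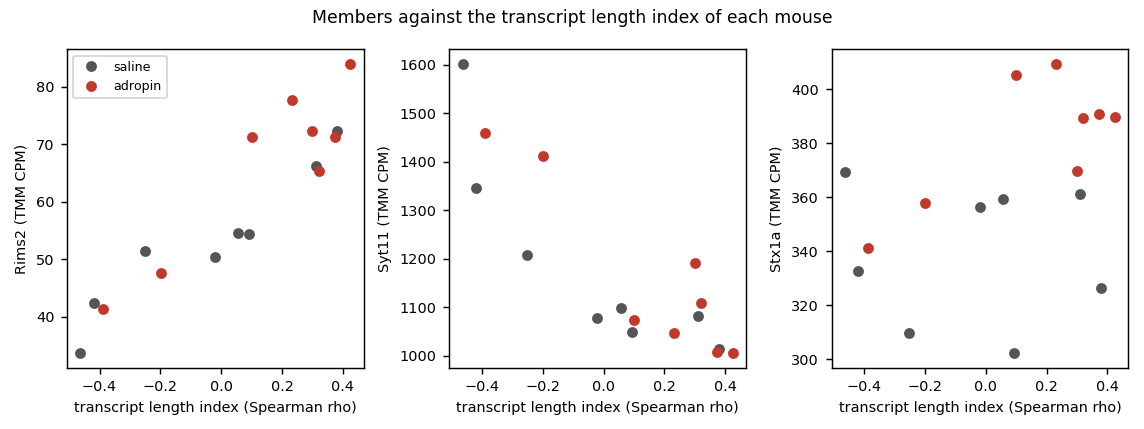
Level (TMM-normalised CPM) of Rims2, Syt11 and Stx1a in each of the 16 mice against the transcript length index of that mouse (saline grey, adropin red). Rims2 climbs with the index and Syt11 drops, with adropin and saline mice along the same line, whereas 6 of the 8 adropin mice lie above every saline mouse for Stx1a.

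The log2 fold changes between groups followed length too. Across the 39 members the Spearman correlation of log2 fold change with exon length was 0.558, and across 13568 protein-coding genes it was 0.387. Both are descriptions across genes, which are not independent replicates. Of the 13 members with more than 8 kb of exon, 12 were above 0 with a median log2 fold change of 0.14, beside 74.0% above 0 and a median of 0.06 for all coding genes of that length. Of the 13 with 2 to 4 kb, 8 were above 0 with a median of 0.01, beside 38.9% and -0.03. With the index as a covariate in edgeR, added after the data were seen, Stx1a, Bsn and Pclo kept an unadjusted p below 0.05 and Rims1 and Sv2b did not, and the smallest adjusted p of a member was 1. The log2 fold change of Stx1a was then 0.15. Those of Bsn, Rims1 and Rims2 moved more, to 0.15, 0.13 and 0.12, and those of Pclo and Sv2b were both 0.14.

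Marker lists of 13 cell types and regions were scored in each mouse as the mean z-scored log2 CPM of their genes, again with group means subtracted. Of 507 relations between a member and a list, 35 had a permutation adjusted p below 0.05, a limit that 4.62% of such relations of all genes tested met. Of the 35, 12 had an adjusted p below 0.05 for the rank correlation as well. Rab3a followed the pan-neuronal list (r = 0.902, rho = 0.935, adjusted p = 0.00182, r = 0.860 without the 2 extreme mice), as did Syt11 (r = 0.774, rho = 0.738, adjusted p = 0.0184), while Syngr1 ran against it (r = -0.699, permutation adjusted p = 0.0363 for r and 0.135 for rho). By r the astrocyte list had the most relations, 10 positive and 1 negative, led by Syngr1 (r = 0.871, rho = 0.724, permutation adjusted p = 0.00624 for r and 0.0568 for rho). Of these 11, only 2 also had an adjusted p below 0.05 for rho, Slc32a1 (r = 0.734) and Sv2c (r = 0.719). For the GABA neuron list 4 of 5 did. The astrocyte score itself had r = 0.706 with the length index, the cortical excitatory score 0.663 and the pan-neuronal score -0.677.

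The oligodendrocyte list ran against 3 members, Syn2 (r = -0.818, permutation adjusted p = 0.0118), Syngr3 (r = -0.783) and Napb (r = -0.709), and Sypl followed it (r = 0.774, permutation adjusted p = 0.0177). For Syngr3, Napb and Sypl the adjusted p of the rank correlation was 0.0899, 0.0610 and 0.0610, and without the 2 extreme mice r was -0.468, -0.493 and 0.615. The summed level of 8 myelin and oligodendrocyte genes spanned 2821 to 8204 CPM in saline and 2938 to 8240 CPM in adropin mice. Napa followed the endothelial list (r = 0.830, rho = 0.885, permutation adjusted p = 0.00182), and Syt3 the hippocampal list (r = 0.738, rho = 0.718, permutation adjusted p = 0.0362 for r and 0.0724 for rho). The cortical excitatory list was followed by Sv2a (r = 0.779), Syt1 (r = 0.738), Rims2 (r = 0.703) and Rph3a (r = 0.699), each with a permutation adjusted p below 0.05 for r but between 0.0899 and 0.257 for rho, and for Rph3a r was -0.0594 without 4 mice described next. Snap25 followed the GABA neuron list (r = 0.815, rho = 0.759, permutation adjusted p = 0.00409). Stx1a had no marker list at an adjusted p below 0.05, and its largest r was 0.579 with the cortical excitatory list.

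A set of 4 mice stood apart in Syt2 and 5 other members. Syt2 lay between 25.8 and 52.3 CPM in adropin mice 3_3 and 4_3 and saline mice 5_4 and 6_1, and between 85.4 and 148 CPM in the other 12. The gap between the sets was 0.71 on the log2 scale, and the next widest between any neighbouring mice was 0.35. The same 4 mice were below all others in Vamp1 (95.8 to 140 CPM against 167 to 277 CPM), Cplx1 (462 to 566 CPM against 670.1 to 866 CPM) and Rph3a (371 to 432 CPM against 503 to 632 CPM). They were above all others in Syt7 (489 to 538 CPM against 396 to 483 CPM) and in Slc17a7 (1986 to 2275 CPM against 1675 to 1947 CPM). Thus 6 of the 39 members, counting Syt2 on which the sets were chosen, divided the mice in the same way, as did 6.6% of all genes tested. Each treatment had 2 mice among the 4. None of the 13 marker lists, nor the length index, divided them fully. The score of the cortical excitatory list came nearest, at -1.014 to -0.334 in the 4 mice and -0.353 to 0.619 in the other 12, of which only saline mouse 8_3 reached into the range of the 4. The score of the GABA neuron list (Gad1, Gad2, Sst, Pvalb and Vip) was -0.687 to -0.09 in the 4 mice and -0.308 to 0.765 in the other 12, so the sets overlapped.

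**Figure D5:**
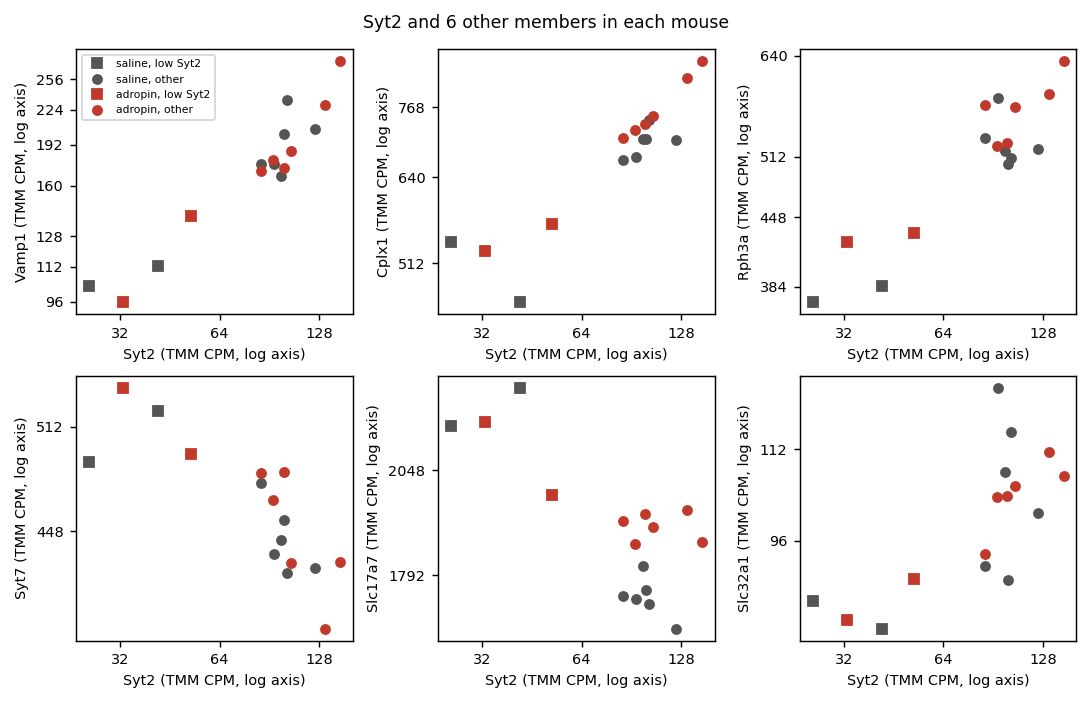
Level of Vamp1, Cplx1, Rph3a, Syt7, Slc17a7 and Slc32a1 against that of Syt2 in each of the 16 mice (TMM-normalised CPM, both axes logarithmic; saline grey, adropin red). The 4 mice with 25.8 to 52.3 CPM of Syt2 are drawn as squares and lie apart from the other 12 in the first 5 panels, whereas for Slc32a1 their 82.8 to 90.0 CPM overlap the 89.8 to 124 CPM of the rest.

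Since the mice fell into separate sets, relations among these 6 genes were taken within the other 12 mice alone, as 15 pairs. Vamp1 and Cplx1 kept r = 0.922 (rho = 0.839, permutation adjusted p = 0.00885 for r, r = 0.822 without the 2 extreme mice). Syt2 and Cplx1 had r = 0.892 (rho = 0.923, permutation adjusted p = 0.0145, r = 0.628) and Syt2 and Vamp1 r = 0.839 (rho = 0.860, permutation adjusted p = 0.0181, r = 0.532). Syt2 and Syt7 had r = -0.769 (rho = -0.762, permutation adjusted p = 0.0425, r = -0.673), and Syt7 and Cplx1 r = -0.748 (rho = -0.769, permutation adjusted p = 0.0557 for r and 0.0359 for rho). No pair with Rph3a or Slc17a7 had an adjusted p below 0.05 within these 12 mice. Syt7 also ran against the GABA neuron score within them (r = -0.844, rho = -0.790, permutation adjusted p = 0.00354 over 6 relations, r = -0.711 without the 2 extreme mice). For Syt2 that r was 0.761 (permutation adjusted p = 0.0129, and 0.0164 for rho), and for Vamp1 0.472 (permutation adjusted p = 0.212). Over all mice, the closest list of Vamp1 was thalamic (r = 0.775, permutation adjusted p = 0.0112, and 0.0182 for rho). With that list Syt2 and Cplx1 had r of 0.67 and 0.66 (permutation adjusted p = 0.0633 and 0.0519). Their rho was 0.756 and 0.700 (permutation adjusted p = 0.0309 and 0.0465). Both Vamp1 and Syt2 followed the endothelial list (r = 0.724 and 0.699). These values include the mice set apart, and region and cell type were not separated.

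Leaving out these 4 mice, a choice made after the data were seen and on the level of 1 of the members, changed the comparison of treatments. In the remaining 6 adropin and 6 saline mice, 11 members had an unadjusted p below 0.05 in edgeR, all with a log2 fold change above 0, but so did 12.2% of all genes tested in either direction, and the smallest adjusted p of a member was 0.388. The 11 were the 5 above, with Rims2, Syngr1, Syt1, Napb, Cplx1 and Slc17a7. Among these 12 mice the groups did not overlap for Stx1a (log2 fold change 0.21, exact permutation p = 0.00217, the smallest that the 924 divisions can give). Slc17a7 had no overlap either, with the same p. The share of all genes tested without overlap in these mice was not counted. For Stx1a, adropin mice 4_3 and 3_3, which were left out, were the lowest of their group (341 and 358 CPM). Saline mice 5_4 and 6_1, also left out, were the highest and lowest of theirs (369 and 302 CPM). The lack of overlap for Stx1a is thus a description only. The 4 mice left out were also the 4 highest in Slc17a7 and the 4 lowest in Cplx1, so that leaving them out selected on the levels of both genes, and their places among the 11 are a description only. In all 16 mice the exact permutation p of Slc17a7 was 0.259. The log2 fold change was 0.40 for both Rims1 and Rims2, with exact permutation p of 0.00866 and 0.0195. Adropin mice 3_3 and 4_3, which were left out, were the lowest of their group for both genes, so these values too are a description only. In these 12 mice the length index was 0.292 ± 0.114 (SD, n = 6) in adropin and 0.009 ± 0.311 (SD, n = 6) in saline mice. The part of the index in that change was not tested.

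Because Syt2, Vamp1 and Cplx1 moved together within the 12 mice, their promoter windows are shown with that of Stx1a, the member with the smallest p between groups. Each is 300 bases from RefSeq on GRCm38.p6, from 250 bases before to 50 after an annotated start, in the direction of the gene, with capitals marking the GC box, GGGCGG or its reverse complement CCGCCC, which Sp-family factors bind. The windows are chr1:134646362-134646661 (plus strand) for Syt2, chr6:125215331-125215630 (plus) for Vamp1, chr5:108549978-108550277 (minus) for Cplx1 and chr5:135023232-135023531 (plus) for Stx1a.
Syt2: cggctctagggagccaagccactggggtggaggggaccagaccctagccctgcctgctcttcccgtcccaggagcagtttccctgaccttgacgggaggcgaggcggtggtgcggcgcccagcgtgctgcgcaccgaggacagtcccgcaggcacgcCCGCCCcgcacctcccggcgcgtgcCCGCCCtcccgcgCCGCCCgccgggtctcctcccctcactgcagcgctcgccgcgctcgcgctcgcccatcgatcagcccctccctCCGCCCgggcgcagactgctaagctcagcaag
Vamp1: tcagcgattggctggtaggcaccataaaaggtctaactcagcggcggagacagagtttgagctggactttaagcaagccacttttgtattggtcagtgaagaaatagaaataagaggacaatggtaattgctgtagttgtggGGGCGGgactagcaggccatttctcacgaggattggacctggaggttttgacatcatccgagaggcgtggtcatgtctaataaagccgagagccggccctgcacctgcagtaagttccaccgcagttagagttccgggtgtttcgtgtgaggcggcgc
Cplx1: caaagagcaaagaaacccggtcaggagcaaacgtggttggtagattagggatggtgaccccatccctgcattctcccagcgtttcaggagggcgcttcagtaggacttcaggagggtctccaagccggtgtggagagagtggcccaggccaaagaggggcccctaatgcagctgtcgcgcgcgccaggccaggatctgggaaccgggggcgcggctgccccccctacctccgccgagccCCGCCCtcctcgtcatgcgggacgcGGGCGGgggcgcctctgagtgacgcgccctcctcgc
Stx1a: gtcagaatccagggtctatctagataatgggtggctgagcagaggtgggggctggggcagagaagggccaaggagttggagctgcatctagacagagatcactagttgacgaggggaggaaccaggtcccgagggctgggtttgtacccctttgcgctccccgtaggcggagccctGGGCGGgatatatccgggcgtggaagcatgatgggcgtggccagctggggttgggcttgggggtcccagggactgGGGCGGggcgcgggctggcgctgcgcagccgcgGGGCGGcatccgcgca
Syt2 held 4 GC boxes, Stx1a 3, Cplx1 2 and Vamp1 1, and the GC content of the windows was 74.3%, 66.3%, 67.0% and 51.7% in the same order. Windows were found for 30 of the 39 members. A GC box was in a window of 23 of the 30 members and of 38.2% of 27025 genes with windows, and the median GC content was 63.3% over 41 member windows and 52.7% over all windows. The cAMP response element, TGACGTCA, was in windows of 2 of the 30 members (Napa and Syn1) and of 2.03% of all genes. The EGR site, GCGNGGGCG on either strand, was in those of 7 (Cplx1, Nsf, Stxbp5, Syn2, Syngr1, Synpr and Unc13a) and of 6.27% of all genes, and it overlapped a GC box in 5 member windows. These matches describe letters in the windows and not factor binding, which was not measured.

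For 13 members another gene lies across them on the opposite strand, and the sources used here do not say whether counting used strand. Only unambiguous reads were counted, so that without strand a read over exons of both genes would be dropped, and one from the other gene outside its own exons could count for the member. Among the members with p below 0.05 this concerns Sv2b (1500012K07Rik) and Pclo (Gm26918 and Gm26954), and among those that varied with the length index Syn3 (Timp3), Unc13a (Colgalt1) and Rab3a (Mpv17l2).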

How the data were processed

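Per the labels and the paper's methods, polyadenylated RNA was sequenced as 150-base read pairs, the authors aligned the reads with STAR to the mouse assembly of Ensembl release 76, and they deposited raw counts of unambiguous, uniquely aligned reads per gene from featureCounts. A second deposited table of CPM was not used. Duplicate entries (276) were dropped.

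TMM factors were computed over all genes, 355 ribosomal RNA genes were left out, and genes above 1 CPM in 7 or more mice were fitted with edgeR 4.0.16 in R 4.3.3. A call needed a fold above 1.5 and unadjusted p below 0.05, the study's cut-off, and adjusted p-values cover all genes tested. Printed levels are TMM-normalised CPM. Single genes were also compared by a two-sided exact permutation test over 12870 divisions of the mice. Correlations used log2 CPM (prior count 2) and 100000 two-sided permutations of mice within groups. The labels do not say that mice are anything but separate animals, and p-values measure the spread between them. Exon lengths and coordinates came from GENCODE M21 on GRCm38. Scripts were tested on simulated data.

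All 39 members are named, with the other vesicle genes at p below 0.05, the 6 highest and 6 lowest pairs, and, for some members only, the closest marker list. Paralog pairs and Rab3a with Syt11 were picked after their values were seen. A gene of the GABA neuron list is not reported here and was left out of its score after the data were seen. The members and lists were chosen with earlier results of these data known. Alternatives were limma-voom (3.58.1), DESeq2 (1.42.0), other filters and scalings, label numbers as blocks, and leaving out mice.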

Additional observations from a re-analysis of the deposited data

Results flagged for a closer look

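In 6 of 78 sets of 8 values (39 genes in each group) 1 mouse lay farther from the rest than Dixon's 95% limit for 8 values allows, and chance alone would give about 3.9. Saline mouse 5_4 was the highest of its group in 3 of them, with 1237 CPM of Syp, 316 CPM of Syt5 and 2639 CPM of Cplx2. Adropin mouse 2_1 was the lowest of its group for Syt3, at 65.3 CPM. Adropin mouse 4_3 was the lowest for Unc13a, at 355 CPM, and adropin mouse 3_3 the highest for Slc17a7, at 2178 CPM. Mice 5_4, 4_3 and 3_3 were among the 4 with the lowest Syt2 level and had 3 of the 5 lowest values of the length index. None of the 5 genes with unadjusted p below 0.05 was among these.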

How the results depend on the processing

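The correlation of Syt5 with the astrocyte list, -0.652 in 16 mice, was 0.303 without the 4 mice with low Syt2, that of Rph3a with the cortical excitatory list, 0.699, was then -0.0594, neither had a permutation p below 0.05 in those mice, and no other result changed direction past a threshold. Under each of the 25 other fits no member passed the fold and p cut-off. The number of members with unadjusted p below 0.05 was 5 in the reported fit, beside 3.99% of all genes tested. It was 1 when the first number of the mouse labels was a block (2.19% of all genes) and 2 when the second was (2.81%). It was 3 with the length index as a covariate (3.43%) and 11 without the 4 mice with low Syt2 (12.2%). It lay between 2 and 8 when each mouse was left out in turn. It was 2 without adropin mouse 1_3 (2.64% of all genes) or saline mouse 8_3 (2.77%). It was 3 without adropin mice 2_4 or 5_5 or saline mice 2_3, 5_4 or 8_1 (2.56% to 3.76%). It was 8 without adropin mouse 4_3 (9.67%) or saline mouse 5_3 (6.56%). The first number occurs in both groups for only 8 mice, so that block rests on few of them, and Rims1 alone kept an unadjusted p below 0.05 under it, with log2 fold changes of 0.20 for Stx1a and 0.15 for Sv2b. Members with a log2 fold change below 0 numbered 7, 11 with library size alone, 12 and 11 under the first and second block, 4 with the length covariate and 2 to 10 on leaving out a mouse, with 2 without saline mouse 5_4 and 3 without adropin mouse 2_1. Of the 97 other vesicle genes tested, 2 had p below 0.05, and 1 had with the length covariate. The count was 14 without the 4 mice with low Syt2, beside 12.2% of all genes tested. It was 1 to 11 on leaving out a mouse, the highest without adropin mouse 4_3, beside 9.67% of all genes. The median log2 fold change of the members stayed between 0.05 and 0.09 and the median r between pairs between 0.065 and 0.136 on leaving out a mouse. Both label numbers served only as blocks, since no source says that mice sharing one belong together. Depth did not limit these genes, and the spread between mice did. Exact permutation and edgeR fell on opposite sides of 0.05 for Bsn and Rims1. With the length index regressed out, 5 of the 12 named pairs had permutation p of 0.05 or more.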
